A study of Mus musculus with 25 samples.

Results

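The enzymes with which the pancreas digests food were followed as messenger RNA in the mouse duodenum. Prss2, Try4, Try5, Ctrb1, Cela2a, Cela3b, Cpa1, Cpb1, Pnlip and Cel were taken from the deposited count table by their symbols, which are 10 of 17007 genes in the table. Each symbol matched 1 gene identifier, and all 10 genes entered all 6 statistical comparisons. The question was whether these genes rise and fall together from library to library, in the way that pancreas tissue carried over with the duodenum would give.

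Polyadenylated RNA was sequenced from 25 duodenum samples of male mice, all fed for 8 weeks from an age of 8 weeks. The KI_Half group (6 libraries) were mice with an Aldh2 knock-in (Aldh2KI) fed 2.5% ethanol and given gavages of 2 g/kg on 2 occasions per week. The KI_Con group (4 libraries) were knock-in mice on the control diet. The WT_Con (4 libraries), WT_Half (7 libraries) and WT_Full (4 libraries) groups were C57BL/6N mice, taken as wild type (WT), on the control diet, on the same 2.5% regimen, and on 5% ethanol with gavages of 4 g/kg, also 2 per week. Ethanol-fed mice were killed 9 h after a final gavage, for which a dose of 5 g/kg is stated, and the labels do not say whether control mice were gavaged or when they were killed. Aldh2 encodes the mitochondrial enzyme that clears acetaldehyde formed from ethanol, and the labels do not describe the knocked-in allele further. The replicates carry separate numbers, and whether each was 1 animal is not stated, so p-values measure the spread between these samples.

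Acinar cells of the exocrine pancreas make digestive enzymes as inactive or stored proteins and release them in granules into ducts that open into the duodenum. The enzyme proteins therefore act in the duodenal lumen, while their messenger RNA is made in the pancreas, an organ that lies against the duodenal wall. In acinar cells these genes are driven by the PTF1 complex, which binds an E-box next to a TC box. Trypsins, chymotrypsins and elastases cut proteins internally, carboxypeptidases remove residues from the end of the chain, and lipases split fats and esters.

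Promoter windows of 300 bases (250 before and 50 after the gene start, RefSeq, build GRCm38.p6) were found for 9 of the 10 genes. They are shown because the 10 genes varied together, and Cel, Cela2a and Prss2 were the 3 whose windows held both motifs searched, CACCTG (an E-box, CAGGTG on the other strand) and TGGGAA (a TC box core, TTCCCA on the other strand). The motifs do not overlap each other, capitals mark every match on either strand, and each sequence is given on the strand of its gene. The windows lie at chr2:28563354-28563653 on the minus strand for Cel, chr4:141825956-141826255 on the minus strand for Cela2a and chr6:41521526-41521825 on the plus strand for Prss2.
Cel: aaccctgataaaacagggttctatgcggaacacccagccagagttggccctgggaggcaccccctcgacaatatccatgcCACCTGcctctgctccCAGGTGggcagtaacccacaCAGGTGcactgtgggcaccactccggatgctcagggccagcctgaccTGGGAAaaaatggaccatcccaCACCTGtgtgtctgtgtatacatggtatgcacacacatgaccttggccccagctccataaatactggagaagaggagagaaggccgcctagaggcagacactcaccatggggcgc
Cela2a: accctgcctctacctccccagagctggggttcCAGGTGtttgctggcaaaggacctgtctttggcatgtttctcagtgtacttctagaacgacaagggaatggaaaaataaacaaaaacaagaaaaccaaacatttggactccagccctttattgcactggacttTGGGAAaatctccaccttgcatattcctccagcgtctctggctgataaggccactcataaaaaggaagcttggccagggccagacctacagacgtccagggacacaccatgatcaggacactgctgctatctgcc
Prss2: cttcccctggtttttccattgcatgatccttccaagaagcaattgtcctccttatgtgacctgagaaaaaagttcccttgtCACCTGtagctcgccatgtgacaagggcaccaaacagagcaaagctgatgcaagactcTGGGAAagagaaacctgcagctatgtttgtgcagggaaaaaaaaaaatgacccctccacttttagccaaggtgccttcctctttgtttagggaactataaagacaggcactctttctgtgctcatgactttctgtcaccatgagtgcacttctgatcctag
CACCTG was present in 6 of the 9 windows and in 20.2% of 32851 windows of all genes. TGGGAA was also present in 6 of the 9 windows, against 25.6% of all windows, and both were present in 3 of 9, against 5.27%. Matches were counted anywhere in the window, and the distance between the motifs was not examined, so windows with both need not hold them next to each other. A match of 6 letters is a description of the window and does not show that a factor binds there.

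The libraries held 24.6 to 44.8 M (mega) counts each. Levels are given as counts per M counts of the library (CPM) after scaling with the trimmed mean of M values (TMM). Genes typical of duodenal enterocytes were abundant in every library, with 6 genes summing to between 14282 and 38472 CPM. The 10 pancreatic enzyme genes summed to between 2.22 and 5039 CPM. In bulk tissue, fewer acinar cells and less RNA per acinar cell cannot be told apart.

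The summed level was far higher in 5 control libraries than in the other 20. In KI_Half it ran from 5.33 to 12.7 CPM with a median of 10.2 CPM, against 5039, 1730, 9.92 and 8.69 CPM in KI_Con replicates 1 to 4. In WT_Con replicates 1 to 4 it was 2484, 4.17, 1878 and 223 CPM. High and low libraries therefore lay within the same genotype and diet. In WT_Half the sum ran from 2.22 to 47.0 CPM with a median of 7.79 CPM, and in WT_Full it was 8.05, 5.64, 3.16 and 7.40 CPM. The low control libraries KI_Con replicates 3 and 4 fell inside the range of KI_Half, and WT_Con replicate 2 fell inside the ranges of WT_Half and WT_Full.

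Expressed as a share of all counts, the 10 genes took 0.453% of KI_Con replicate 1, 0.165% of KI_Con replicate 2, 0.242% of WT_Con replicate 1, 0.185% of WT_Con replicate 3 and 0.0231% of WT_Con replicate 4. These shares correspond to 131010, 52691, 71459, 83112 and 7574 counts. The lowest library, WT_Half replicate 3, had 67 counts over all 10 genes. Values near 1 CPM or below therefore rest on small counts.

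**Figure D1:**
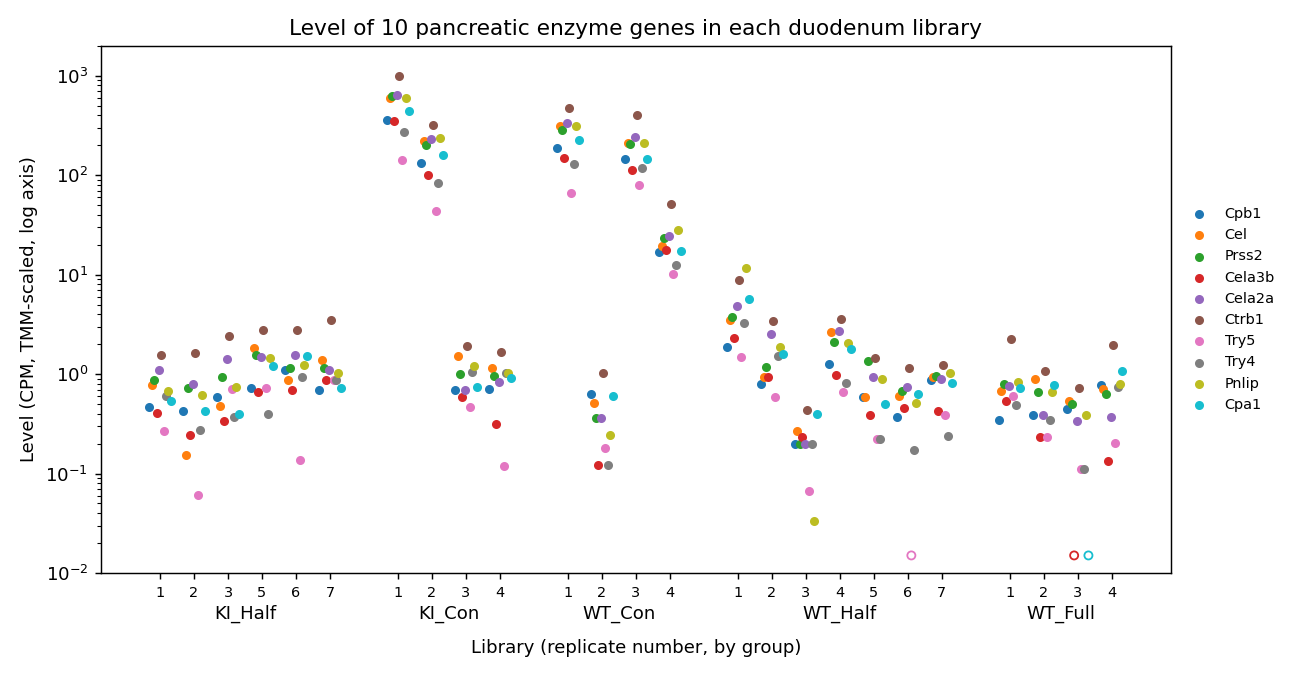
Level of each of the 10 enzyme genes (colours) in each of the 25 libraries, in CPM on a log axis, by group and replicate number; open circles at the lower edge are libraries with 0 counts of a gene. Each of the 10 genes is higher in KI_Con replicates 1 and 2 and WT_Con replicates 1, 3 and 4 than in any other library.

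The trypsinogens were read from Prss2, Try4 and Try5. Prss2 encodes an anionic trypsinogen, which enteropeptidase of the duodenal brush border turns into active trypsin (ENSMUSG00000057163, chr6:41521787-41525079, plus strand). It ranged from 0.731 to 1.54 CPM in KI_Half with a median of 1.04 CPM, against 634, 203, 0.998 and 0.948 CPM in KI_Con. In wild type it was 285, 0.362, 208 and 23.5 CPM in WT_Con, 0.199 to 3.72 CPM with a median of 1.17 CPM in WT_Half, and 0.797, 0.656, 0.503 and 0.636 CPM in WT_Full. The groups overlapped, because the low control libraries lay among or below the ethanol libraries. Try4 (ENSMUSG00000054106, chr6:41302269-41305532, plus strand) and Try5 (ENSMUSG00000036938, chr6:41311233-41316841, minus strand) are trypsinogen genes of the same chromosome region. Try4 had at most 3.25 CPM in an ethanol library, against 274, 83.4, 1.06 and 1.03 CPM in KI_Con and 130, 0.121, 117 and 12.4 CPM in WT_Con. Try5 had at most 1.49 CPM in an ethanol library, with 0 counts in WT_Half replicate 6, against 142, 43.6, 0.468 and 0.118 CPM in KI_Con and 66.1, 0.181, 80.5 and 10.2 CPM in WT_Con. Both were high in the libraries in which Prss2 was high. Of the 50-base windows of their transcripts, 65.6% for Try4 and 47.6% for Try5 occurred in another gene, against 7.83% for Prss2, so reads of these trypsinogens could have been split or dropped in counting and their levels are uncertain. For Cela3b the figure was 19.2% (with Cela3a), for Cela2a 15.6% (with Ctrc), and for the other 5 genes 0.

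Ctrb1, the chymotrypsinogen B gene (ENSMUSG00000031957, chr8:111686519-111691010, minus strand), had the highest CPM of the 10 in every library other than WT_Half replicate 1. It ranged from 1.55 to 3.49 CPM in KI_Half with a median of 2.58 CPM, against 993, 317, 1.93 and 1.66 CPM in KI_Con. In wild type it was 477, 1.03, 404 and 52.0 CPM in WT_Con, 0.432 to 8.76 CPM with a median of 1.46 CPM in WT_Half, and 2.28, 1.08, 0.727 and 1.97 CPM in WT_Full. The same control libraries were high as for Prss2. The elastase genes followed them. Cela2a (ENSMUSG00000058579, chr4:141814962-141826160, minus strand) had at most 4.81 CPM in an ethanol library, against 642, 233, 0.686 and 0.829 CPM in KI_Con and 336, 0.362, 244 and 24.6 CPM in WT_Con. Cela3b (ENSMUSG00000023433, chr4:137420999-137430540, minus strand) had at most 2.33 CPM in an ethanol library, against 354, 100, 0.592 and 0.316 CPM in KI_Con and 148, 0.121, 113 and 17.8 CPM in WT_Con. For both elastases the highest ethanol library was WT_Half replicate 1.

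The carboxypeptidase genes were high in the same libraries. Cpa1, whose product removes aromatic and aliphatic residues (ENSMUSG00000054446, chr6:30639218-30645363, plus strand), ranged from 0.396 to 1.52 CPM in KI_Half with a median of 0.633 CPM, against 443, 160, 0.748 and 0.908 CPM in KI_Con. In wild type it was 229, 0.604, 145 and 17.4 CPM in WT_Con, 0.398 to 5.66 CPM with a median of 0.812 CPM in WT_Half, and 0.721, 0.772, 0 and 1.07 CPM in WT_Full. The wild-type groups again overlapped through WT_Con replicate 2. Cpb1, whose product removes basic residues (ENSMUSG00000011463, chr3:20248264-20275733, minus strand), had at most 1.86 CPM in an ethanol library, against 358, 133, 0.686 and 0.711 CPM in KI_Con and 189, 0.634, 147 and 16.8 CPM in WT_Con.

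The lipases were high in these libraries too. Pnlip, the pancreatic triglyceride lipase (ENSMUSG00000046008, chr19:58652498-58681788, plus strand), ranged from 0.610 to 1.44 CPM in KI_Half with a median of 0.877 CPM, against 602, 236, 1.22 and 1.03 CPM in KI_Con. In wild type it was 312, 0.242, 210 and 28.5 CPM in WT_Con, 0.0332 to 11.6 CPM with a median of 1.02 CPM in WT_Half, and 0.835, 0.656, 0.391 and 0.803 CPM in WT_Full. The 11.6 CPM belonged to WT_Half replicate 1, where Pnlip and not Ctrb1 was the most abundant of the 10 genes. Cel, the bile salt-dependent lipase that splits cholesterol esters and other esters (ENSMUSG00000026818, chr2:28555795-28563403, minus strand), had at most 3.52 CPM in an ethanol library, against 595, 222, 1.53 and 1.15 CPM in KI_Con and 312, 0.513, 209 and 19.4 CPM in WT_Con.

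All 10 genes had the same 5 highest libraries, KI_Con replicates 1 and 2 and WT_Con replicates 1, 3 and 4. All 10 were highest in KI_Con replicate 1, and 6 of 10 had these 5 libraries in 1 identical order. The level in the 5th library exceeded that in the 6th by 2.45-fold for Pnlip to 9.03-fold for Cpb1. Over the whole table, 23 of 17007 genes (0.135%) had these same 5 highest libraries, and 19 of the 23 were enzyme or acinar genes of the lists described here. The 10 genes, whose sum set these 5 libraries, are among the 19, and the lists were chosen with earlier results of these data known. For the other 4 genes (2810454H06Rik, Laptm4a, Eps8l1 and Lpar2), named after their values were seen, the 5th library exceeded the 6th by at most 1.09-fold.

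Ratios between libraries were alike across the 10 genes for some pairs of libraries and spread more widely for others. The level in KI_Con replicate 1 over that in WT_Con replicate 1 lay between 1.90-fold (Cpb1) and 2.40-fold (Cela3b) for the 10 genes, and that in WT_Con replicate 1 over KI_Con replicate 2 between 1.32-fold (Pnlip) and 1.56-fold (Try4). Other pairs ran more widely, also among libraries with high levels. WT_Con replicate 1 over WT_Con replicate 3 ran from 0.821-fold (Try5) to 1.58-fold (Cpa1). WT_Con replicate 3 over KI_Con replicate 2 ran from 0.891-fold (Pnlip) to 1.84-fold (Try5), so the genes differed in direction for these pairs. KI_Con replicate 1 over WT_Con replicate 4 ran from 14.0-fold (Try5) to 30.6-fold (Cel), and over WT_Half replicate 1 from 51.8-fold (Pnlip) to 192-fold (Cpb1). Of the counts of the 10 genes, Ctrb1 made up 18.3% to 23.3% in the 5 highest libraries and Try5 2.52% to 4.57%. Pnlip made up 11.2% to 13.6% in these libraries and 24.7% in WT_Half replicate 1 (95% Wilson interval 22.8% to 26.7%, 468 of 1895 counts), which is outside that range. Cpb1 made up 7.11% to 7.81% and, in WT_Half replicate 1, 3.96% (3.17% to 4.93%). The intervals cover counting error only. Per kb of exon length in KI_Con replicate 1, Ctrb1 was highest at 1131 CPM per kb, followed by Prss2 at 778 and Cela2a at 373 CPM per kb, and Cpb1 was lowest at 109 CPM per kb.

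**Figure D2:**
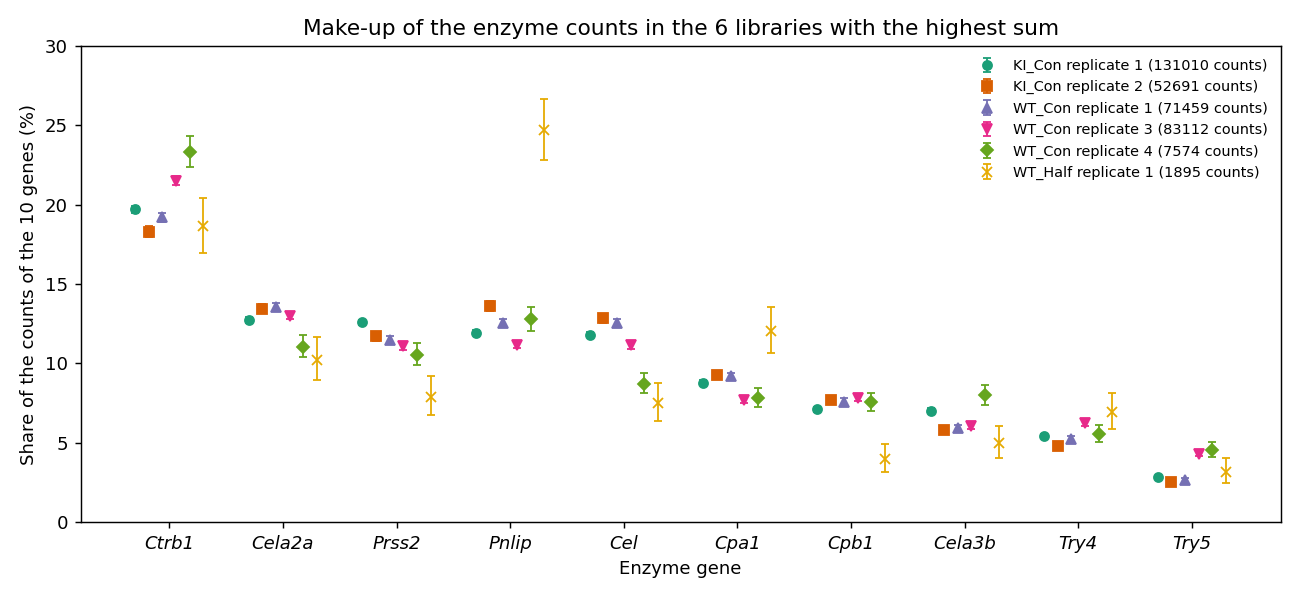
Share (%) of each enzyme gene among the counts of the 10 genes in the 6 libraries with the highest sums (symbols), with 95% Wilson intervals. In the 5 control libraries Ctrb1 lies at 18.3% to 23.3% and Try5 at 2.52% to 4.57%, while WT_Half replicate 1 has 24.7% Pnlip.

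The other pancreatic enzymes and cofactors of a list of 27 were looked up, and 11 were found in the table; the rest, among them Prss1, Ctrc and the amylases, were not analysed here. Of the 11, 7 had the same 5 highest libraries as the 10 genes, among them 2210010C04Rik, Ctrl, Cela1, Pnliprp1, Pla2g1b and Rnase1. 2210010C04Rik was closest, at 395, 134, 0.998 and 0.790 CPM in KI_Con and 218, 0.302, 151 and 15.4 CPM in WT_Con. Clps, the gene of colipase, which works with the Pnlip protein, was 42.8 CPM in WT_Half replicate 1, the library with a high share of Pnlip, and 7.79 to 17.6 CPM in the rest of WT_Half, against 90.7, 10.1, 65.7 and 21.1 CPM in WT_Con. Pnliprp2, a lipase-related gene that intestinal cells also express, did not follow and was higher on 2.5% ethanol. Of 12 proteins of acinar granules and other acinar proteins, Gp2 and Sycn, both of the granule membrane, had the same 5 libraries. Sycn was 102, 27.8, 0.499 and 0.790 CPM in KI_Con and 41.1, 0.332, 25.3 and 4.53 CPM in WT_Con. Reg1 was at 907 to 2639.8 CPM in all libraries and Zg16 at 819 to 2469.7 CPM, and neither followed the enzymes.

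None of the 5 acinar transcription factors, 4 islet, 6 duct, 6 enterocyte, 3 Brunner gland, 4 stomach, 6 adipocyte, 6 hepatocyte and 9 luminal proteolysis genes that were found had the same 5 highest libraries. Only 0.135% of all genes had them, so none would be likely in lists this short. Among the acinar factors Gata4 and Gata6 had at least 194 and 87.9 CPM in every library. The duct genes Cftr and Krt19 had at least 75.1 and 1077 CPM, so these lists are not specific to pancreas here. Ptf1a, Rbpjl, Ins1 and Ins2 were not analysed here, and of the islet genes that were found, Gcg, Sst, Pdx1 and Mafa, the first 3 are also made in the intestine. The islet list summed to between 108 and 260 CPM in all libraries.

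Other tissue markers also differed between libraries. Muc6, Tff2 and Gkn3, markers of the submucosal Brunner glands that are densest next to the stomach, summed to between 34.4 and 7174 CPM in KI_Half, against 190, 54.3, 10913 and 1096 CPM in KI_Con. The KI_Con libraries with high enzymes were thus those with low Brunner gland genes. In wild type they summed to 10608, 35.1, 53685 and 33250 CPM in WT_Con, to between 46.5 and 16945 CPM in WT_Half and to between 15.3 and 7156 CPM in WT_Full, so that the WT_Con libraries with high enzymes were those with high Brunner gland genes. The stomach genes Gkn1 and Gkn2 were 5740.2 and 6722 CPM in WT_Con replicate 3 and at most 14.2 and 12.9 CPM in any other library. Their part in the enzyme levels was not tested.

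**Figure D3:**
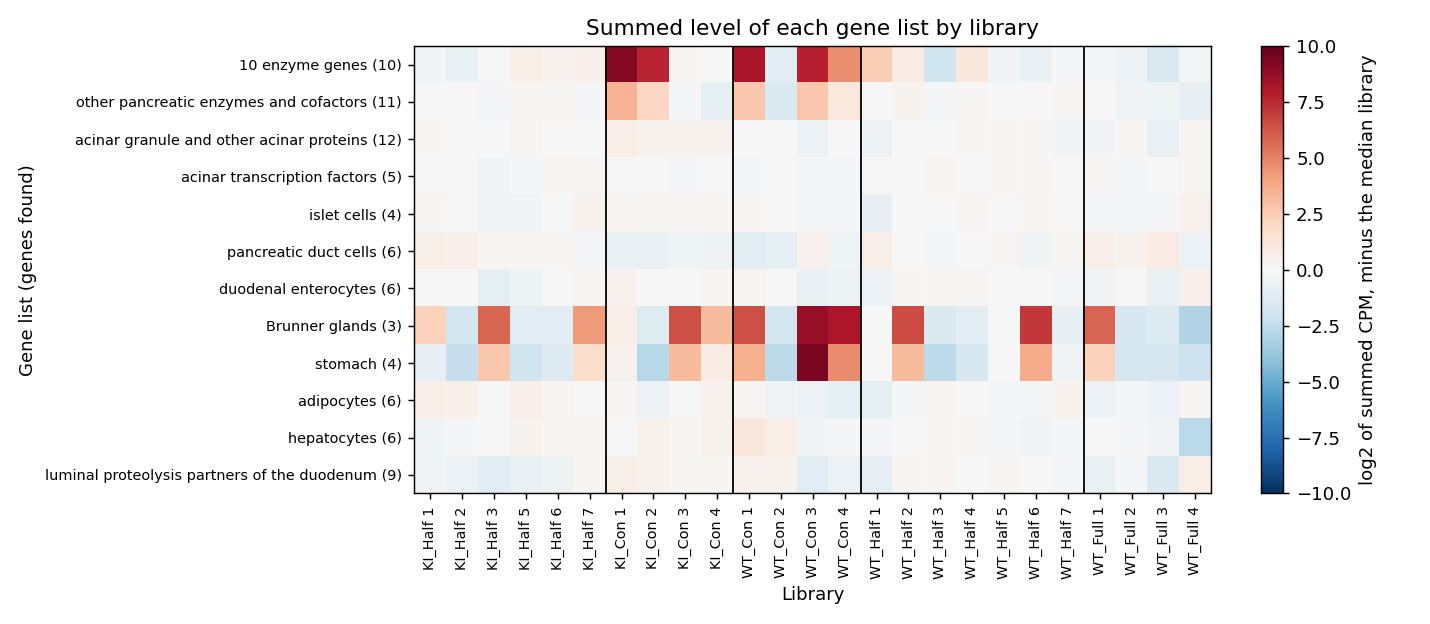
Summed level of each gene list (rows, number of genes found in brackets) in each library (columns), as log2 of the summed CPM minus the median library. The enzyme genes are high in 5 control libraries, 3 of which, WT_Con replicates 1, 3 and 4, are also high in the Brunner gland and stomach rows. In WT_Con replicates 1 and 4 the stomach row is high through Pgc, at 230 and 497 CPM, with Gkn1 at 0.348 and 14.2 CPM. Those rows are also high in libraries with low enzymes, among them KI_Con replicate 3 and WT_Half replicate 6, and KI_Con replicates 1 and 2 are high for the enzymes without being among the high Brunner gland or stomach libraries.

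In knock-in mice the 2.5% ethanol regimen went with lower levels of all 10 enzyme genes. In KI_Half against KI_Con all 10 were lower at an adjusted p under 0.05 (edgeR quasi-likelihood test with Benjamini-Hochberg adjustment over 16944 genes), with 17.9% of all genes called lower and 37.9% called in either direction. The log2 differences ran from -6.64 (Try5, SE 1.44, adjusted p = 0.00478) to -7.81 (Cel, SE 1.51, adjusted p = 0.00268), with a median of -7.53 against 0.00 for all genes tested. The mean of Ctrb1 was 2.43 ± 0.75 CPM in KI_Half (SD, n = 6) and 328 ± 467 CPM in KI_Con (SD, n = 4), and in both control groups the SD exceeded the mean for all 10 genes. Only 1 of 10 genes, Try4, had groups without overlap, with at most 0.934 CPM in KI_Half and at least 1.03 CPM in KI_Con, against a background of 13.9% of all genes that did not overlap in this direction. Leaving out KI_Con replicates 1 and 2, chosen by their enzyme levels and after the data were seen, gave 0 of 10 genes called by edgeR, against 15.1% of all genes, and 0 at an unadjusted p under 0.05, against 34.9% of all genes. The log2 differences were then -0.86 (Try4) to 0.72 (Cela2a). Leaving out the libraries highest in these genes removes the difference by construction, so these counts of 0 are not a test of it.

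In wild-type mice the same regimen gave 9 of 10 genes called lower in WT_Half against WT_Con by edgeR, with 0.571% of all genes called lower and 1.47% in either direction. The log2 differences ran from -5.72 for Pnlip (SE 1.30, adjusted p = 0.0515), the gene not called, to -6.68 for Cpb1 (SE 1.03, adjusted p = 0.0172), with a median of -6.35 against 0.00 for all genes. No gene of the 10 had groups without overlap, against 2.17% of all genes lower without overlap. The count fell to 0 without WT_Con replicate 1, where 0.0412% of all genes were called lower. It fell to 1 without WT_Half replicate 4, 5 or 7, where 0.0883%, 0.0766% and 0.124% of all genes were called lower. Without WT_Con replicates 1, 3 and 4, chosen by their enzyme levels, 1 control library was left, which was assumed to vary like the others. The fit with edgeR then called 0 of 10 genes, against 0.0% of all genes, and 0 at an unadjusted p under 0.05, against 9.83% of all genes, with log2 differences from 0.42 (Cpb1) to 3.39 (Pnlip).

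On 5% ethanol, 0 of 10 genes were called in WT_Full against WT_Con by edgeR, where 1 of 16882 genes was called (0.00592%). The log2 differences ran from -7.11 (Try5, SE 1.53) to -8.36 (Cela2a, SE 1.72), with adjusted p from 0.129 to 0.142, and all 10 were lower at an unadjusted p under 0.05, against 7.85% of all genes. DESeq2 called all 10 lower, with 2.54% of all genes called lower, and the edgeR fit on all 25 libraries also called 10, with 3.56% of all genes called lower. The call thus depended on the tool and on how many libraries gave the spread. The authors' deposited table gave log2 fold changes of -7.10 (Try5) to -8.36 (Cela2a) and adjusted p from 9.16e-05 to 1.70e-07, which placed the 10 genes at ranks 11 to 98 of 16982. Without WT_Con replicate 2, the low control library, edgeR called 9 of 10, with 0.0649% of all genes called lower. Without WT_Full replicate 4 it called 10, with 5.06% of all genes called lower. Without the 3 high control libraries it called 0, against 0.0% of all genes, and 0 at an unadjusted p under 0.05, against 4.01%, with log2 differences from -0.36 (Cpb1) to 1.77 (Try4). No gene had groups without overlap, against 3.76% of all genes lower without overlap. All of these comparisons in wild type share the WT_Con libraries.

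**Figure D4:**
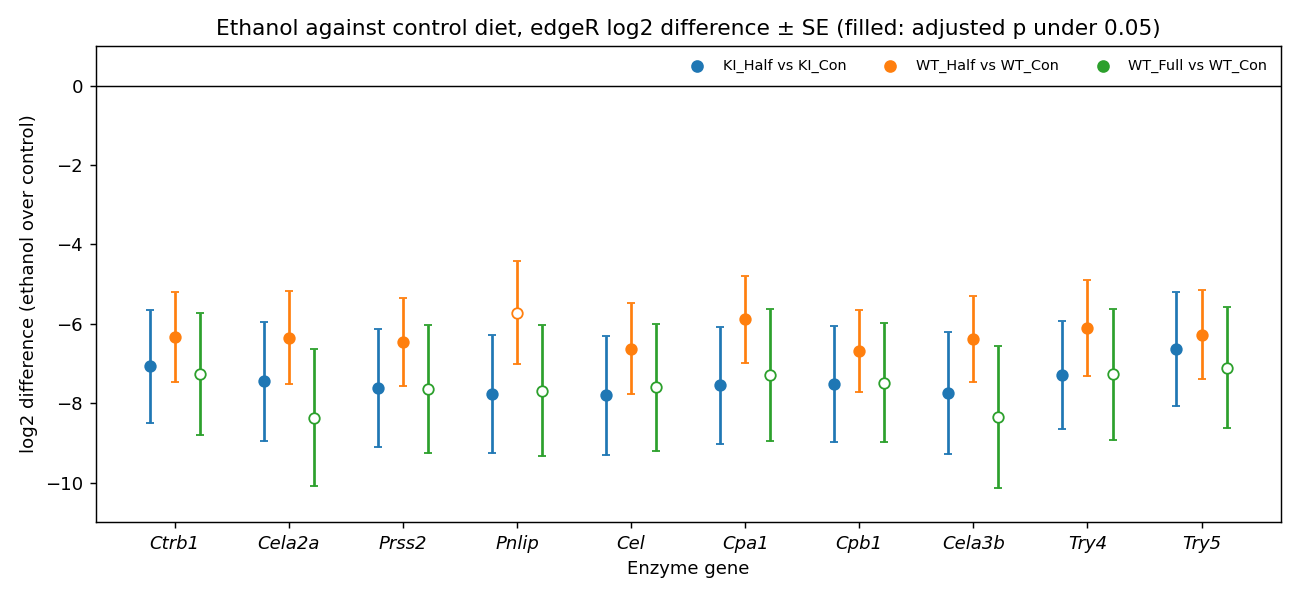
The log2 difference (± SE) of each enzyme gene for KI_Half against KI_Con, WT_Half against WT_Con and WT_Full against WT_Con, filled where the edgeR adjusted p was under 0.05. All values lie between -5.72 and -8.36, with filled points for 10, 9 and 0 genes.

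Genes of other lists also differed in the ethanol comparisons (edgeR). In KI_Half against KI_Con, where 17.9% of all genes were called lower, 3 of 6 enterocyte genes (Vil1, Alpi and Sis) were called lower, with a list median of -0.44 on the log2 scale. In the same comparison 5 of 9 luminal proteolysis genes were called lower, with a median of -0.58, among them Tmprss15, the gene of enteropeptidase, with a log2 difference of -1.88 (SE 0.26, adjusted p = 0.000644). The stomach genes Gkn1 and Gkn2 were called lower as well, with 2 of 4 stomach genes and 0 of 3 Brunner gland genes called and list medians of -1.98 and -0.83. Of 4 islet genes 2 were called higher and 0 lower (median 0.72), and of 6 duct genes 2 higher and 1 lower (median 0.43). Of 5 acinar transcription factors 1 was called higher and 1 lower (median 0.08), where 37.9% of all genes were called in either direction. In WT_Half against WT_Con 0 islet genes were called, and 1 duct gene was called lower and 0 higher, with list medians of 0.23 and -0.97. In WT_Half against WT_Con the stomach list had a median of -5.53 and the Brunner gland list one of -2.59, and in WT_Full against WT_Con the medians were -6.87 and -3.78. No gene of these stomach and Brunner gland lists was called in either wild-type comparison, and at an unadjusted p under 0.05 there were 0 of 3 Brunner gland genes in each. At that p there were 3 of 4 stomach genes in WT_Half (Gkn1 and Gkn2 lower, Atp4a higher), against 21.8% of all genes, and 3 of 4 in WT_Full (Gkn1, Gkn2 and Pgc lower), against 17.8% of all genes. The part of these genes in the enzyme differences was not tested.

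The genotypes were compared at each diet. In KI_Con against WT_Con the log2 differences were 0.23 (Try5) to 0.69 (Cela3b), with SE 1.67 to 1.87 and adjusted p from 0.905 to 0.969 (edgeR). Without KI_Con replicate 1 all 10 differences were negative, from -0.82 (Pnlip) to -1.43 (Try5). The full test called 0 of 10 genes and 0 of 16813 genes in all (0.0%). At an unadjusted p under 0.05 there were 0 of 10 and 1664 genes (9.9%), and DESeq2 called 0 of 10 and 11 genes (0.065%). In KI_Half against WT_Half the log2 differences ran from -0.08 (Try5, SE 0.75) to -1.41 (Pnlip, SE 0.78, adjusted p = 0.415). Here edgeR called 0 of 10 genes and 0 of 16907 genes (0.0%), with 0 and 2398 (14.2%) at an unadjusted p under 0.05, and DESeq2 called 0 of 10 and 172 genes (1.01%). The difference between the genotypes in their response to 2.5% ethanol, tested as an interaction, was -0.36 (Try5) to -2.06 (Pnlip, SE 1.93, adjusted p = 0.649), with 0 of 10 and 0 of 17006 genes (0.0%) called by edgeR. At an unadjusted p under 0.05 there were 0 of 10 and 2162 genes (12.7%), and DESeq2 called 0 of 10 and 36 genes (0.212%). The sign of the interaction also turned for 8 of the 10 genes without KI_Con replicate 1. With an SE near 1.8, differences of several fold between the control groups were not detectable.

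The other pancreatic enzymes of the list changed in the same comparisons. In KI_Half against KI_Con 9 of 11 were called lower and 1 higher, with a median log2 difference of -4.17, where 17.9% of all genes were called lower. In WT_Half against WT_Con 5 were called lower and 1 higher, with a median of -3.68, where 0.571% of all genes were called lower. The gene called higher was Pnliprp2 in both, with a log2 difference of 1.78 (SE 0.33, adjusted p = 0.00212, edgeR) in knock-in and 1.94 (SE 0.42, adjusted p = 0.0425) in wild-type mice. It was 61.7 to 136 CPM in KI_Half, against 51.5, 26.2, 17.3 and 25.2 CPM in KI_Con. In wild type it was 30.6, 13.3, 35.0 and 14.8 CPM in WT_Con, 25.04 CPM in WT_Half replicate 6 and 69.5 to 124 CPM in the rest of WT_Half, and 76.9, 86.6, 71.8 and 25.7 CPM in WT_Full. The wild-type groups thus overlapped, and the knock-in groups did not. Of the granule and other acinar proteins, 5 of 12 were called lower in KI_Half against KI_Con (Gp2, Sycn, Zg16, Spink1 and Gstm6), against the same 17.9%, and 2 of 11 tested in WT_Half against WT_Con (Gp2 and Sycn), against the same 0.571%. Zg16, Spink1 and Gstm6 did not follow the enzymes from library to library. Their Pearson's r with the summed enzyme level was -0.127, 0.386 and 0.014, against 0.890 for Gp2 and 0.970 for Sycn. In WT_Full against WT_Con edgeR called 0 of 10 tested enzymes, with 9 at an unadjusted p under 0.05, and 0 of 11 tested granule genes, with 3, against 17.8% of all genes at that p in either direction.

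The likeness of each gene's log2 CPM to the summed enzyme level over the 25 libraries was described by Pearson's r, in which libraries share their scaling and the 10 genes are part of the sum. It was 0.975 (Try5) to 0.998 (Ctrb1) for the 10 genes, 0.991 for 2210010C04Rik, 0.970 for Sycn, 0.966 for Cela1, 0.951 for Ctrl and 0.944 for Pnliprp1. Other genes of the pancreatic lists lay lower, such as Pdia2 at 0.763 and Bhlha15 at 0.395. The 12 genes outside the lists with the highest values were Eps8l1 at 0.697, Ugt2b36, Txndc12, Slu7, Dnajc4, Lztfl1, Fn3krp, Sdr42e1, Gm11992, Gnptg, Wif1 and, at 0.655, Cpn1.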

How the data were processed

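Polyadenylated RNA from 25 mouse duodenum libraries was sequenced. Per the submitters' processing notes, FastQC, Trimmomatic, HISAT2 (GRCm38), SAMtools, featureCounts and DESeq2 were used; neither versions nor the strand and multi-mapping settings are stated. The deposited counts are raw read counts per gene. Of 17220 lines in each of the 2 deposited tables, 213 repeats were merged, leaving 17007 genes; each had more than 20 counts in at least 5 libraries. The deposited log2 fold changes and adjusted p-values are the authors' DESeq2 results, per the file headers, and the deposited signal column is a mean of normalised counts over libraries; the deposited score columns (Wald statistics and ranks by the authors) were not used.

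Groups were compared with edgeR 4.0.16 (R 4.3.3) on the deposited counts, by quasi-likelihood F test with TMM scaling, the default low-count filter and no covariates, calling genes at a Benjamini-Hochberg adjusted p under 0.05 (two-sided); SEs come from the F statistic. Alternatives were DESeq2 1.42.0, a fit on all 25 libraries, other size factors, no filter, a replicate block and leaving out each library. Added after the data were seen was a fit without control libraries above 100 CPM of the summed enzymes. The steps were tested on simulated counts. Positions and exon lengths come from GENCODE M21. All 10 enzymes, list genes found and the 12 most alike genes are named; the members and lists were chosen with earlier results of these data known.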

Additional observations from a re-analysis of the deposited data

Results flagged for a closer look

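In WT_Half, replicate 1 was far above the other 6 libraries for 4 of the 10 enzyme genes and for their sum. Pnlip was 11.6 CPM there, against 2.06 CPM in the next library, and Cpa1 was 5.66 CPM against 1.79 CPM. Ctrb1 was 8.76 CPM against 3.55 CPM, Cela3b was 2.33 CPM against 0.970 CPM, and the sum was 47.0 CPM against 18.6 CPM. In WT_Full, Cela2a was 0.759 CPM in replicate 1 against 0.386 CPM in the next library. These gaps exceeded Dixon's 95% critical value in 6 of 55 groups of values examined, 5 of them through WT_Half replicate 1. Chance flags about 1 in 20 independent groups, but these groups are not independent, since the 10 genes vary together and make up the sum, so the count cannot be read against that rate.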

How the results depend on the processing

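The direction of all 10 enzyme genes in the 3 ethanol comparisons held under DESeq2, the fit on all 25 libraries, RLE size factors, no filter, the replicate block and leaving out each library in turn. It did not hold without control libraries above 100 CPM, an alternative chosen after the data were seen. Then WT_Full vs WT_Con had log2 differences of 0.46 for Cel, 0.84 for Prss2, 0.84 for Cela3b, 0.35 for Cela2a, 0.57 for Ctrb1, 0.65 for Try5, 1.77 for Try4, 1.47 for Pnlip and 0.080 for Cpa1. WT_Half vs WT_Con had 0.42 for Cpb1, 1.40 for Cel, 2.00 for Prss2, 2.73 for Cela3b, 2.33 for Cela2a, 1.47 for Ctrb1, 1.42 for Try5, 2.90 for Try4, 3.39 for Pnlip and 1.42 for Cpa1. KI_Half vs KI_Con had 0.13 for Prss2, 0.22 for Cela3b, 0.72 for Cela2a, 0.44 for Ctrb1 and 0.62 for Try5. In KI_Half vs KI_Con 0 enzyme genes and 2565 genes in all were called. Calls for the wild-type comparisons are given in the Results and are not repeated here. Those fits kept 1 control library, whose spread had to be assumed, so their calls are not a test of the difference. This alternative leaves out the libraries with the highest enzyme levels, which by construction removes the difference.

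Genes called in WT_Full vs WT_Con numbered 934 with DESeq2, 1289 with all 25 libraries and 0 with the replicate block, against 1, and enzyme genes called were 10 with DESeq2 and 10 with all 25 libraries, against 0. In WT_Half vs WT_Con genes called numbered 1353 with DESeq2 (which replaces outlying counts in the group of 7), 720 with all 25 libraries and 0 with the block, against 249. In KI_Con vs WT_Con they numbered 11 with DESeq2, 1 with all 25 libraries and 1 with the block, against 0, in KI_Half vs WT_Half 172 with DESeq2 and 2 with all 25 libraries, against 0, and in the interaction 36 with DESeq2 and 18 with the block, against 0. The causes were not tested.

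Leaving out each library gave 0 to 10 enzyme genes and 0 to 2069 genes called in WT_Full vs WT_Con, 0 to 10 enzyme genes and 21 to 446 genes in WT_Half vs WT_Con, 0 to 1 genes in KI_Con vs WT_Con and 0 to 1 genes in KI_Half vs WT_Half. In KI_Half vs KI_Con it gave 10 enzyme genes each time. Some log2 differences between genotypes changed sign. In KI_Con vs WT_Con they ran from -0.99 to 1.16 for Cpb1, from -0.87 to 1.41 for Cel, from -0.94 to 1.43 for Prss2, from -1.07 to 1.37 for Cela3b, from -0.98 to 1.27 for Cela2a, from -1.15 to 1.10 for Ctrb1, from -1.43 to 0.85 for Try5, from -1.21 to 1.04 for Try4, from -0.82 to 1.39 for Pnlip and from -0.88 to 1.46 for Cpa1. In KI_Half vs WT_Half they ran from -0.40 to 0.37 for Ctrb1, from -0.36 to 0.50 for Try5 and from -0.86 to 0.10 for Try4. In the interaction they ran from -1.54 to 0.61 for Cpb1, from -2.02 to 0.25 for Cel, from -1.91 to 0.45 for Prss2, from -2.04 to 0.39 for Cela3b, from -1.87 to 0.38 for Cela2a, from -1.36 to 0.88 for Ctrb1, from -0.99 to 1.30 for Try5 and from -1.79 to 0.46 for Try4. In KI_Con vs WT_Con leaving out KI_Con replicate 1 turned the direction of all 10 genes.

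Replicate numbers did not pair the libraries throughout: no comparison had a correlation over 0.1 for every same-numbered pair, and not every library correlated best with its own number in any comparison. In KI_Con vs WT_Con, however, replicates 1, 2 and 3 had correlations of 0.126, 0.207 and 0.243 and matched their own number best. Replicate 4 had -0.013 and did not, so a pairing in that comparison remains uncertain. With the replicate block enzyme genes called were 0 in WT_Half vs WT_Con, where 0.0% of all genes were called lower, and 8 in KI_Half vs KI_Con, where 17.8% were. Under the block KI_Con vs WT_Con had log2 differences of -1.30 for Cpb1, -1.22 for Cel, -1.32 for Prss2, -1.31 for Cela3b, -1.55 for Cela2a, -1.65 for Ctrb1, -1.13 for Try5, -0.84 for Try4, -1.49 for Pnlip and -1.23 for Cpa1, and KI_Half vs WT_Half had 0.011 for Cpb1, 0.065 for Prss2, 0.11 for Cela2a, 0.48 for Ctrb1, 0.46 for Try5 and 0.13 for Try4. With 4 control libraries in a group, and those at opposite extremes, the design gives wide intervals for every enzyme gene. The mean levels without TMM moved by less than 1 SD of their group. In both control groups that SD exceeded the mean for every enzyme gene, so a shift from scaling could hardly exceed it there.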
